A study of Mus musculus with 168 samples.

Results

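Astrocytes of the striatum were set against astrocytes of the somatosensory cortex in old mice, gene by gene. The astrocyte table holds 17 of the 150 single cells measured in the series: 13 striatum cells, of which 11 are named OGStr and 2 OStr, and 4 cortex cells, named OCx. All were taken from male C57BL/6 mice labelled 25 months old, and no treatment, transgene or mutation is named for either region. Cells of both regions were sorted as positive for GLAST, the surface epitope of the glutamate transporter Slc1a3, and negative for the leukocyte antigen CD45 and the oligodendrocyte antigen O4. The protocol also says that cells outside the PSA-NCAM sort were positive for Prominin-1, and whether this gate held for the astrocytes is not stated. Cells were then picked by hand and amplified by Smart-seq2, a full-length single-cell RNA-seq method. All other cells come from the subventricular zone (SVZ), the stem cell niche on the ventricle wall, which was cut away from the striatum here. They are labelled 23 months old, so SVZ values given below differ from the astrocytes in age label too. The region of each cell comes from its tissue label, because the protocol text uses the abbreviation Str for both regions. The labels name no animal, and the pooling of several mice is described for SVZ tissue only, so each region counts as 1 sample. No test, standard error or p-value can be given, an SD describes the spread between cells, and a region difference cannot be told apart from a difference between mice, sorts or plates.

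Astrocytes take up glutamate and potassium, pass glucose products to neurons, and make much of the brain's cholesterol, which is loaded on apolipoprotein E and exported through ABC transporters. They arise from radial glia. Cortical astrocytes descend from the dorsal wall of the embryonic forebrain, where the homeobox genes Emx2 and Lhx2 are active, and striatal astrocytes descend largely from its ventral part. In the adult brain, Crym, a thyroid hormone binding protein also called mu-crystallin, is a known label of striatal astrocytes, and Chrdl1, a secreted antagonist of bone morphogenetic proteins, is a known label of cortical ones.

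Values are TPM, transcript shares scaled to the same total in each cell, which keep no read numbers, so sequencing depth is unknown. A cell was said to detect a gene at 1 TPM or more. A gene counted as measured when its mean was 10 TPM or more in either region, which held for 8276 gene symbols. A gene was called for a region when its mean TPM plus 1 was at least 4 times that of the other region and at least 50% of the higher region's cells detected it. This called 308 genes for striatum, 3.72% of those measured, and 587 for cortex, 7.09%. Striatum cells detected between 2860 and 3944 genes (median 3636) and cortex cells between 3034 and 3766 (median 3387). The 50 highest genes of a cell held 32.3% to 48.6% of its transcripts in striatum and 33.2% to 35.6% in cortex. All 20 markers on a general astrocyte list reached a mean of 10 TPM in at least 1 region, and 0 of the 20 were called for either region, with a median log2 difference of -0.25. Slc1a3, the sorted transporter, averaged 3317 ± 1172 TPM (SD, n = 13 cells) in striatum and 3302 ± 1234 TPM (SD, n = 4 cells) in cortex, and each of the 17 cells detected it. Because Slc1a3 was sorted for, its presence was fixed in advance. These markers do not tell astrocytes from SVZ cells, where Slc1a3 averaged 3373 TPM and Gja1, another marker of the list, 2479 TPM. Of an 11-gene SVZ stem cell list 5 genes were measured, all 5 with the higher mean in cortex and 0 called. That list summed to 250 to 1062 TPM in cortex cells and to 14.2 to 439 TPM in striatum cells. The astrocyte label was taken as given and was not tested.

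Of the 5 label genes, Crym was the one higher in striatum, and Igfbp2, Chrdl1, Emx2 and Lhx2 were higher in cortex. Only Igfbp2 among them separated the cells of the regions without overlap. Crym was detected in 8 of 13 striatum cells (61.5%, 95% exact Clopper-Pearson interval 31.6% to 86.1%), with a lowest value of 0, a median of 1474 and a highest of 4522 TPM. It was at 0 in the 4 cortex cells, which with so few cells still allows a share of up to 60.2%. All intervals cover counting error only. Crym was present in both name series of striatum, at a mean of 1363 TPM over the OGStr cells and 3464 TPM over the OStr cells. It was no mark of striatum against all other cells, since 75 SVZ cells (56.4%) detected it.

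Igfbp2 encodes a secreted binding protein for insulin-like growth factors, and GENCODE places it at chromosome 1, 72824503 to 72852474, on the plus strand of GRCm38. It stood at 1311, 1410, 1027 and 106.9 TPM in the cortex cells OCx1, OCx19, OCx24 and OCx5, and at 0 in all 13 striatum cells. The regions did not overlap, although OCx5 lay about an order of magnitude below the other cortex cells. In the SVZ 2 cells (1.504%) detected it. Chrdl1 stood at 389, 25.4, 513 and 332 TPM in the cortex cells in the same order, and 4 of 13 striatum cells detected it, the highest at 150.3 TPM. The regions overlapped for Chrdl1, through OCx19.

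The homeobox genes differed in mean and overlapped between cells. Emx2, which patterns the dorsal forebrain, was at 3.76, 4.49, 239 and 187 TPM in the 4 cortex cells, against a striatum mean of 8.10 TPM with detection in 5 of 13 cells and a highest value of 74 TPM. Lhx2, a LIM homeobox factor of the same territory, was at 311, 0, 185 and 438 TPM in cortex, against a striatum mean of 30.9 ± 36.7 TPM (SD, n = 13 cells) with detection in 6 cells. The 4 label genes called for cortex and the 1 called for striatum were all on the side that named the regions, and since they were chosen with these values known they support nothing further. The plot of label genes by cell shows these values beside those of Fzd2, Notch2, Spon1 and Dhcr7.

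**Figure D1:**
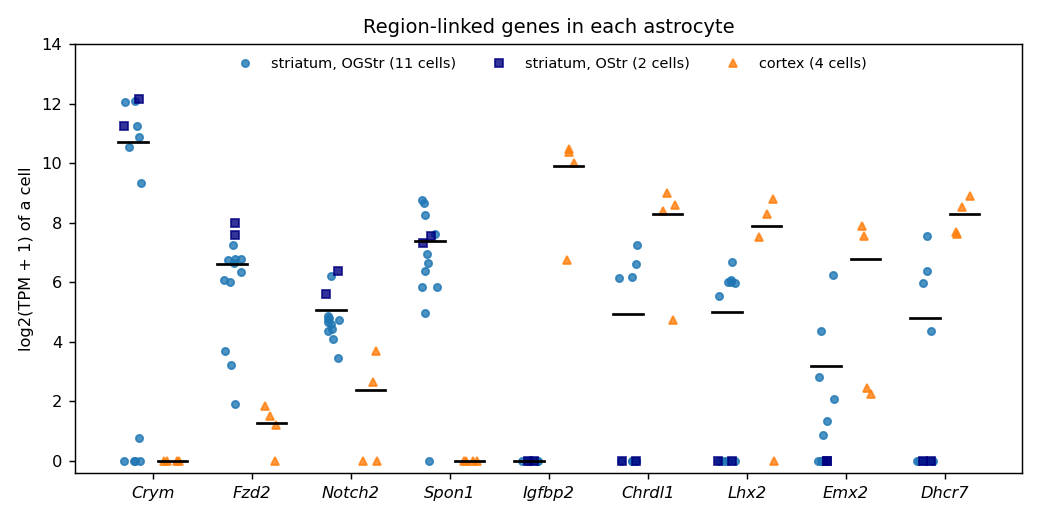
Level of 9 genes in each astrocyte, as log2(TPM + 1), by region and name series; each point is 1 cell and each black bar is the log2 of the region's mean TPM plus 1. Igfbp2 and Dhcr7 separate the 4 cortex cells from the 13 striatum cells and Fzd2 separates them the other way, while Crym is at 0 in the cortex cells and in part of the striatum cells.

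Other patterning genes were mostly silent. Of 14 dorsal forebrain genes 6 reached 10 TPM in a region, and 2 of these, Emx2 and Lhx2, were called for cortex. Otx1, a dorsal homeobox gene, was at 90.5, 36.4, 157 and 0 TPM in cortex cells and was detected in 2 of 13 striatum cells, while Pax6, a factor of dorsal radial glia, was detected in 2 of 4 and 5 of 13. Of 21 ventral genes 4 reached 10 TPM and 0 were called. Six3, a ventral forebrain homeobox gene, was at a striatum mean of 23.2 TPM with detection in 5 of 13 cells and was at 0 in cortex. Dlx1, another gene of that territory, was detected in 0 of 13 striatum cells and in 1 cortex cell, OCx24, at 105.6 TPM.

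The calls over all 8276 measured genes were uneven between the regions. The condition on cells is met by 2 cells in cortex but takes 7 in striatum, so the 2 shares of called genes are not equal measures. Of all calls 34.4% were for striatum, and 46.7% were after scaling the regions to the same median ratio, which gave 377 genes for striatum and 431 for cortex. The median log2 difference over all genes was 0.10, but over the 4373 genes with 10 TPM in both regions it was -0.39, towards cortex. A gene near -0.39 thus lay with the bulk of expressed genes.

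Of the striatum calls, 40.3% were genes at 0 in the 4 cortex cells, and of the cortex calls 8.01% were genes at 0 in the 13 striatum cells. A gene is more readily at 0 in all of 4 cells than in all of 13, so these shares are not equal measures. Only 1 gene had its lowest striatum cell above its highest cortex cell (0.0121% of genes), and 6 had the reverse (0.0725%). The first was Fzd2, and the 6 were Igfbp2, Dhcr7, Ago3, Mpped2, Pde9a and Hmgn3. These counts are unequal measures too, since one takes values above 0 in all 13 striatum cells and the other in only 4 cortex cells. Their order changed with median-ratio scaling, as given below. Ago3, Mpped2, Pde9a and Hmgn3 lay outside the rule for named genes and were singled out after their values were seen. Mpped2, a metallophosphoesterase, was at 153, 190, 22.4 and 127.98 TPM in cortex and detected in 1 of 13 striatum cells. Pde9a, a cyclic GMP phosphodiesterase, was at 297, 126.3, 207 and 113.5 TPM and likewise detected in 1 striatum cell. Hmgn3, a nucleosome-binding protein, was detected in every cell, at a mean of 983 TPM in cortex against 324 TPM in striatum.

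To see how far calls carried over to a cell that had no part in them, genes were called from the other 16 cells and then looked for in the cell left out. Striatum-called genes were detected at 41.1% to 57.1% (median 53.3%) in left-out striatum cells and at 43.04% to 52.4% (median 43.6%) in left-out cortex cells. Cortex-called genes were detected at 20.1% to 33.2% (median 29.4%) and at 31.5% to 40.1% (median 36.4%). The medians went with the region in both cases, and the ranges overlapped in both. Genes called for neither region were detected at 28.5% to 39.3% and 30.99% to 37.1%. The 2 OStr cells lay at the low end for striatum-called genes, below all 4 cortex cells, and so did OGStr13, at 41.9%. OGStr13 and OStr21 also had the lowest shares of genes called for neither region, 28.5% and 28.6%. As a description across genes, which are not independent replicates, a cortex cell's median correlation with other cortex cells was 0.292 to 0.296 and with striatum cells 0.286 to 0.312. Striatum cells correlated at 0.301 to 0.360 with other striatum cells and at 0.275 to 0.324 with cortex cells. Each striatum cell was closer to its own region. Among cortex cells OCx19 and OCx24 were closer to their own region. OCx1 and OCx5 were closer to striatum cells, at 0.312 and 0.302, than to other cortex cells, at 0.295 and 0.292.

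**Figure D2:**
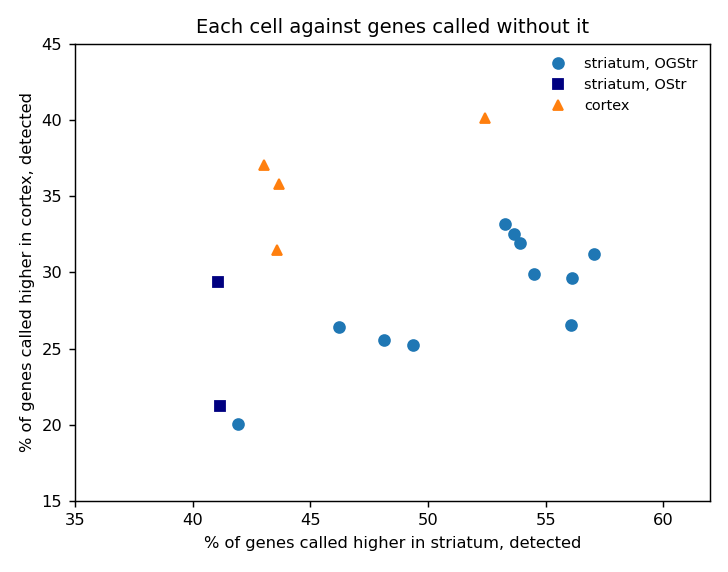
Percent of striatum-called genes (x axis) and of cortex-called genes (y axis) that each cell detected at 1 TPM or more, with genes called from the other 16 cells. Of the 4 cortex cells 3 lie above all striatum cells on the y axis, and the 2 OStr cells have the lowest x values.

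The share of called genes in each of 5 functional classes was near that of all genes. Among 269 transporters with 10 TPM in a region, 13 were called for striatum (4.83%) and 20 for cortex (7.43%). Receptors gave 8 and 11 of 139 (5.76% and 7.91%), and transcription factors 15 and 30 of 365 (4.11% and 8.22%). Secreted proteins gave 5 and 8 (4.72% and 7.55%), and metabolic genes 10 and 17 of 269 (3.72% and 6.32%). The classes' median log2 differences ran from -0.24 for metabolic genes to 0.25 for transcription factors. These counts are therefore no result about any class, and the genes below are described one by one. Classes were formed from families of gene symbols.

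**Figure D3:**
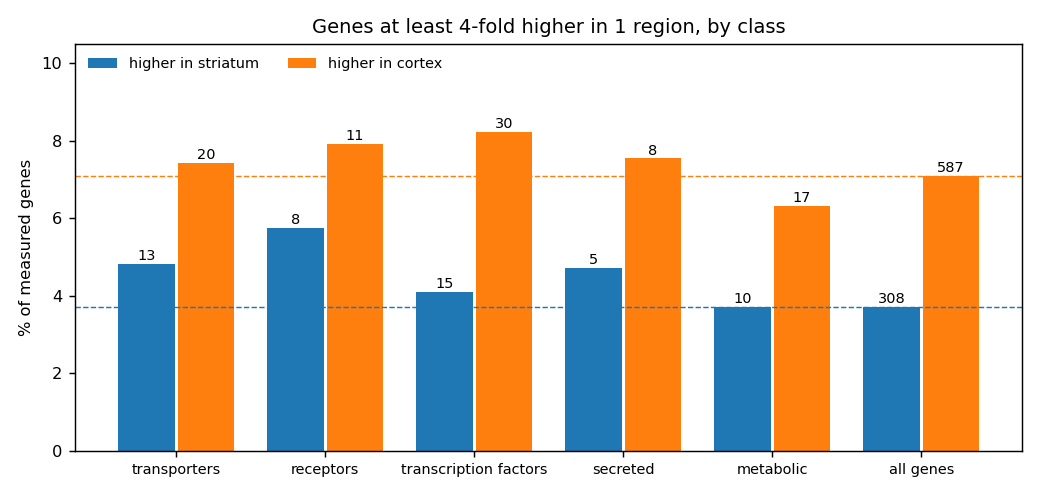
Percent of measured genes called for striatum (blue) or cortex (orange) in each class, with the number of genes above each bar; dashed lines are the shares over all genes, 3.72% and 7.09%. Bars of the 5 classes lie close to the dashed lines.

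Among transporters, the highest levels were shared. Gja1, the gap junction protein connexin 43, averaged 2156 ± 745 TPM (SD, n = 13 cells) in striatum and 2431 ± 714 TPM (SD, n = 4 cells) in cortex. Atp1b2, a sodium pump subunit of astrocytes, averaged 1408 and 2386 TPM and its cells overlapped. Both genes were detected in each of the 17 cells.

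Striatum cells carried 4 named transporters that cortex cells lacked or held at a low level. Abca1, which exports cholesterol to apolipoproteins, had a lowest value of 0, a median of 62 and a highest of 148 TPM in striatum, with detection in 11 of 13 cells, and was at 0 in the 4 cortex cells. Slc37a4, which carries glucose 6-phosphate into the endoplasmic reticulum, had a median of 450 and a highest of 2091 TPM in striatum, was detected in 11 of 13 cells, and was at 0 in cortex. Slc25a34, a mitochondrial carrier, was detected in 9 of 13 striatum cells, none of them OStr cells, and in 0 of 4 cortex cells. Mfsd2a, which carries lysophospholipids with docosahexaenoic acid and is best known in brain endothelium, averaged 718 ± 537 TPM (SD, n = 13 cells) in striatum with detection in 12 of 13 cells. In cortex it was at 356, 0, 0.78 and 41.9 TPM, so the regions overlapped through OCx1.

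Cortex cells carried higher levels of 4 named transporters. Slc25a18, the mitochondrial glutamate carrier of astrocytes, was at 594, 2370, 816 and 14.5 TPM in the cortex cells, against detection in 4 of 13 striatum cells with a highest value of 225 TPM. Slc25a39, a mitochondrial carrier for glutathione, was at 537, 259, 209 and 512 TPM in cortex, and in striatum 5 of 13 cells detected it, the highest at 246 TPM. Slc16a1, the monocarboxylate transporter MCT1 that moves lactate, was at 205, 198, 140 and 17.4 TPM in cortex and was detected in 3 of 13 striatum cells. These 3 were detected in all 4 cortex cells. Slc29a2, an equilibrative nucleoside transporter, was at 406, 276, 0 and 276 TPM in cortex, and in striatum 2 cells detected it, with 18.6 TPM as the highest value.

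Receptors at the highest level were common to both regions. Gpr37l1, an orphan receptor of astrocytes, averaged 3584 ± 1405 TPM (SD, n = 13 cells) and 6030 ± 1468 TPM (SD, n = 4 cells), and the striatum cell was the higher in 3.85% of the 52 striatum and cortex pairs. S1pr1, the sphingosine 1-phosphate receptor, averaged 1086 and 2061 TPM, with the striatum cell higher in 7.69% of pairs. Ntsr2, a neurotensin receptor of astrocytes, averaged 2460 and 1854 TPM and overlapped throughout. None of the 3 reached a 4-fold difference.

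Fzd2, a Frizzled receptor for Wnt ligands at chromosome 11, 102604396 to 102608058 on the plus strand of GRCm38, was detected in 13 of 13 striatum cells. Its values ran from 2.77 over a median of 99.2 to 254 TPM in striatum, and stood at 0, 1.85, 2.58 and 1.29 TPM in cortex. The lowest striatum cell, at 2.77 TPM, was only just above the highest cortex cell, so the separation of the ranges was narrow while that of the means was 67.4-fold. The OStr cells averaged 224 TPM and the OGStr cells 73.2 TPM. Notch2, a receptor for Delta and Jagged ligands, ran from 9.99 over 25.6 to 82.9 TPM in striatum and stood at 5.25, 0, 0 and 11.8 TPM in cortex, with the striatum cell higher in 98.1% of pairs. Pdgfrb, a receptor for platelet-derived growth factor that is known as a pericyte marker, was detected in 11 of 13 striatum cells at a mean of 58.4 TPM and was at 0 in cortex.

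The fourth striatum gene that symbol matching put among receptors, Itgb1bp1, encodes a cytoplasmic protein that binds integrin tails. It was detected in 7 of 13 striatum cells, all OGStr, and in 0 of 4 cortex cells.

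On the cortex side, Hrh1, the histamine H1 receptor, was at 185, 265, 422 and 0 TPM, and 1 of 13 striatum cells detected it, at 266 TPM. Scarb2, a lysosomal membrane receptor, was at 211, 296, 150.5 and 0 TPM, with detection in 5 of 13 striatum cells. Ghr, the growth hormone receptor, was at 0, 190, 0 and 170 TPM and detected in 1 striatum cell. Ryk, a Wnt co-receptor, was at 284, 0, 23.4 and 0 TPM, also with 1 striatum cell. Each of these 4 was missing from at least 1 cortex cell and overlapped between regions.

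Transcription factors of the striatum side included Tcf7l2, an effector of Wnt signalling, which ran from 46.2 over 203 to 566 TPM with detection in 13 of 13 striatum cells. In cortex it stood at 151, 7.55, 0 and 12.99 TPM, and OCx1 alone lay within the striatum range. Tsc22d3, Id1 and Rfx3 had a higher mean in the OGStr cells than in the OStr or the cortex cells. With 2 OStr cells, the difference between name series is a description only. Tsc22d3, a glucocorticoid-induced leucine zipper protein, averaged 1587 TPM over the OGStr cells, 0.205 TPM over the OStr cells and 273 TPM over the cortex cells. Id1, an inhibitor of basic helix-loop-helix factors, was detected in 10 of 11 OGStr cells at a mean of 744 TPM, in 0 of 2 OStr cells, and in cortex only in OCx5, at 136 TPM. Rfx3, a factor of ciliary genes, was detected in 9 of 11 OGStr cells, in 0 of 2 OStr cells and in 0 of 4 cortex cells. The OStr cells did not share the higher level of the OGStr cells in these genes.

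Id3, a relative of Id1, was among the most abundant factors. It ran from 208 over 2012 to 7945 TPM in striatum and was at 0 in 3 cortex cells and at 3254 TPM in OCx5. Id2 averaged 3189 and 1445 TPM and Tsc22d4 1015 and 1033 TPM, and both were detected in all 17 cells.

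Transcription factors of the cortex side beside Emx2 were Bhlhe40, Arntl and Nfyc. Bhlhe40, a circadian repressor, was at 56.6, 0.31, 659 and 178 TPM in cortex and detected in 2 of 13 striatum cells, at up to 361 TPM. Arntl, the clock activator BMAL1, was at 63.2, 32.2, 0 and 164 TPM and detected in 1 striatum cell, at 16.2 TPM. Nfyc, a subunit of the factor NF-Y, was at 684, 56.4, 225 and 288 TPM and detected in 3 of 13 striatum cells, at up to 550 TPM. The time of day at which animals were killed is not given in the labels.

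The most abundant secreted products were those of astrocytes in general. Cst3, the protease inhibitor cystatin C, averaged 44863 ± 14242 TPM (SD, n = 13 cells) in striatum and 24256 ± 9095 TPM (SD, n = 4 cells) in cortex. Apoe, the lipid carrier, averaged 41039 and 28567 TPM, and Clu, the chaperone clusterin, 11629 and 8405 TPM. The cells of the regions overlapped for the 3 genes, and none reached a 4-fold difference.

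Spon1, an extracellular matrix protein also called F-spondin, ran from 0 over 122.4 to 432 TPM in striatum, with detection in 12 of 13 cells and in both OStr cells, and was at 0 in the 4 cortex cells. C4b, complement component 4, was detected in 10 of 13 striatum cells at a mean of 193 ± 216 TPM (SD, n = 13 cells) and was at 0 in cortex. Gdf10, a ligand of the transforming growth factor beta family, was detected in 10 of 11 OGStr cells and in neither OStr nor cortex cells. Serpinb1a, detected in 9 of 13 striatum cells and 0 cortex cells, is an intracellular protease inhibitor that symbol matching placed here. In cortex, Col9a3, a collagen chain, was at 152, 207, 145 and 0 TPM with detection in 2 of 13 striatum cells. Serpinh1, a collagen chaperone of the endoplasmic reticulum, was at 0, 284, 64.1 and 151 TPM with detection in 6 of 13 striatum cells.

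**Figure D4:**
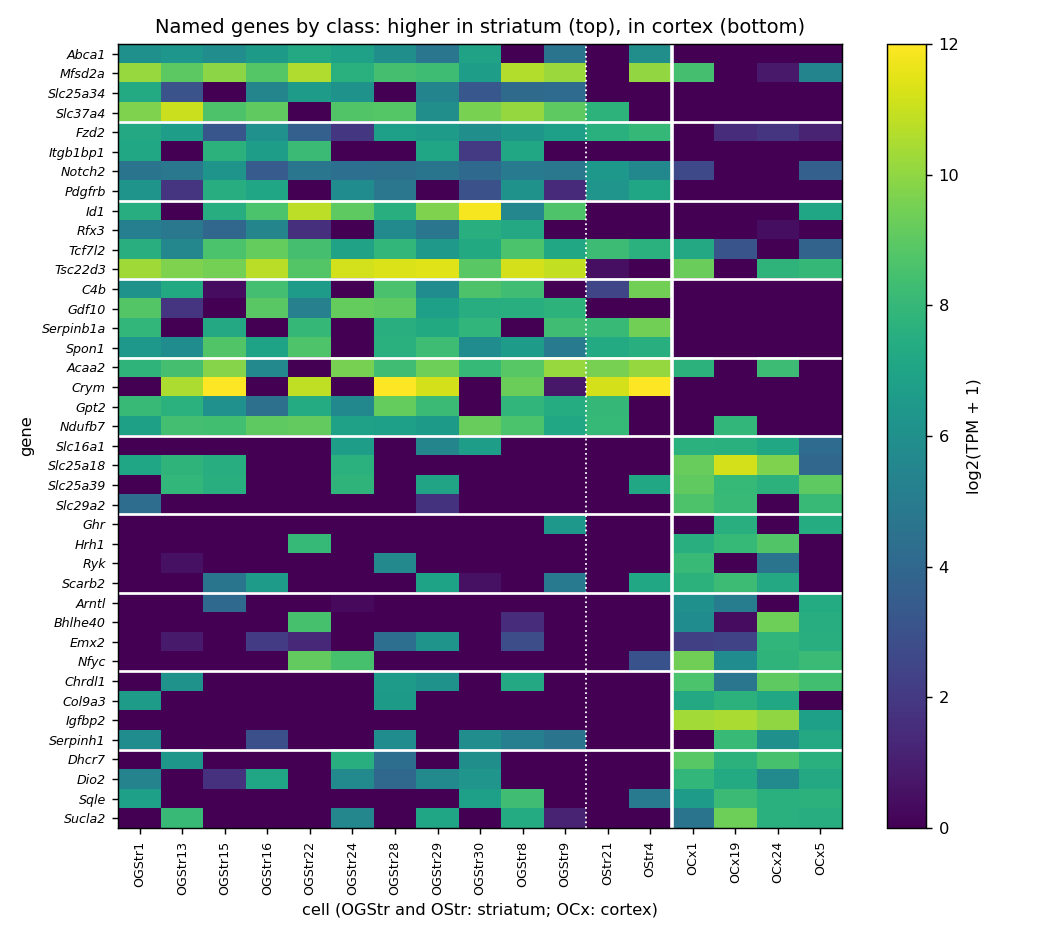
Heat map of log2(TPM + 1) for the called genes named by rule, with 1 column per cell; white horizontal lines separate transporters, receptors, transcription factors, secreted and metabolic genes in that order, first for striatum and then for cortex, and the dotted line parts OGStr from OStr cells. Several striatum genes, among them Tsc22d3, Id1, Rfx3 and Gdf10, are dark in the 2 OStr cells, and most cortex genes are bright in 3 or 4 cortex cells with scattered striatum cells.

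Among metabolic genes, striatum cells had higher levels of Gpt2, Acaa2 and Ndufb7 besides Crym. Gpt2, a mitochondrial alanine transaminase, ran from 0 over 172 to 582 TPM with detection in 11 of 13 striatum cells, and was at 0 in cortex. Acaa2, a thiolase of fatty acid oxidation, averaged 533 ± 376 TPM (SD, n = 13 cells) with detection in 12 cells, and stood at 208, 0, 294 and 0 TPM in cortex. Ndufb7, a complex I subunit, was detected in 12 of 13 striatum cells at a mean of 274 TPM, and in cortex only in OCx19, at 242 TPM. Of the respiratory chain list as a whole, 2 of 56 genes were called for striatum and 0 for cortex, with a median of -0.24.

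Cortex cells had higher levels of Dhcr7, Dio2, Sqle and Sucla2. Dio2, the deiodinase by which astrocytes activate thyroid hormone, was at 242, 160, 52.3 and 149 TPM in cortex, and 7 of 13 striatum cells detected it, with a median of 2.30 and a highest value of 130.1 TPM. Sucla2, a subunit of succinyl-CoA synthetase, was at 23.9, 648, 194 and 180 TPM in cortex and detected in 5 of 13 striatum cells. Glul, glutamine synthetase, averaged 1564 TPM in striatum and 3491 TPM in cortex and was detected in every cell. Its log2 difference of -1.16 was below the threshold for a call.

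Of 9 metabolic lists, that of lipid and sterol synthesis had the most calls, 8 of 34 measured genes for cortex (23.5%, against 7.09% of all genes) and 0 for striatum. The difference lay in the enzymes of sterol synthesis, which turn acetyl-CoA through mevalonate and squalene into cholesterol. These 18 genes were set apart from the rest of the list after the values had been seen. Of the 17 measured, 7 were called for cortex (41.2%): Mvk, Idi1, Fdft1, Sqle, Cyp51, Sc5d and Dhcr7. Their median log2 difference was -1.92, against 0.10 for all genes, and -1.64 over the 13 genes with 10 TPM in both regions, against -0.39. The rest of the list had 1 call in 17 genes and a median of -0.32.

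Dhcr7, which carries out the last reduction to cholesterol, lies at chromosome 7, 143823145 to 143848410, on the plus strand of GRCm38. It was at 478, 206, 364 and 196 TPM in the 4 cortex cells, and 4 of 13 striatum cells detected it (30.8%, interval 9.09% to 61.4%), the highest at 188 TPM. The regions did not overlap, by a margin that was small against the spread between cells, and the cortex mean of 311 ± 135 TPM (SD, n = 4 cells) was 11.5 times the striatum mean. Sqle, squalene epoxidase, was at 93.7, 287, 198 and 207 TPM in cortex and detected in 4 of 13 striatum cells, the highest at 323 TPM. Mvk, mevalonate kinase, was at 30.4, 0, 312 and 258 TPM in cortex and at 0 in all 13 striatum cells. Cyp51, the lanosterol demethylase, was at 173, 344, 76.3 and 0 TPM in cortex, and 1 striatum cell detected it.

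Early and late steps of the pathway were both among the calls. Sc5d, which acts shortly before Dhcr7, was at 650, 78.2, 547 and 185 TPM in cortex against a striatum mean of 83.8 TPM. Msmo1, a sterol methyl oxidase and the most abundant enzyme of the set, averaged 1552 TPM in cortex and 410.5 TPM in striatum, a log2 difference of -1.92 that fell just short of a call. The genes Mvd, Fdps and Nsdhl had the higher mean in striatum, at log2 differences of 4.11, 1.05 and 0.44.

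Summed over the 18 enzymes, cortex cells held 2008 to 5973 TPM (median 3693) and striatum cells 438 to 2740 TPM (median 879), and 11 of 13 striatum cells lay below all cortex cells. Cortex cells detected 9 to 12 of the enzymes and striatum cells 2 to 9. Without Msmo1, in a split also made after the values were seen, the sums were 1767 to 2588 TPM in cortex and 28.3 to 1663 TPM in striatum, and the regions did not overlap. Srebf2, the factor known to activate these genes when sterols are low, was at 47.97, 12.47, 80.5 and 221 TPM in cortex and was detected in 7 of 13 striatum cells at up to 72.8 TPM. Abca1, the exporter that was at 0 in cortex, lay on the other side of this difference. With median-ratio scaling 4 of the enzymes were called for cortex, and with single cells left out between 5 and 9 were.

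**Figure D5:**
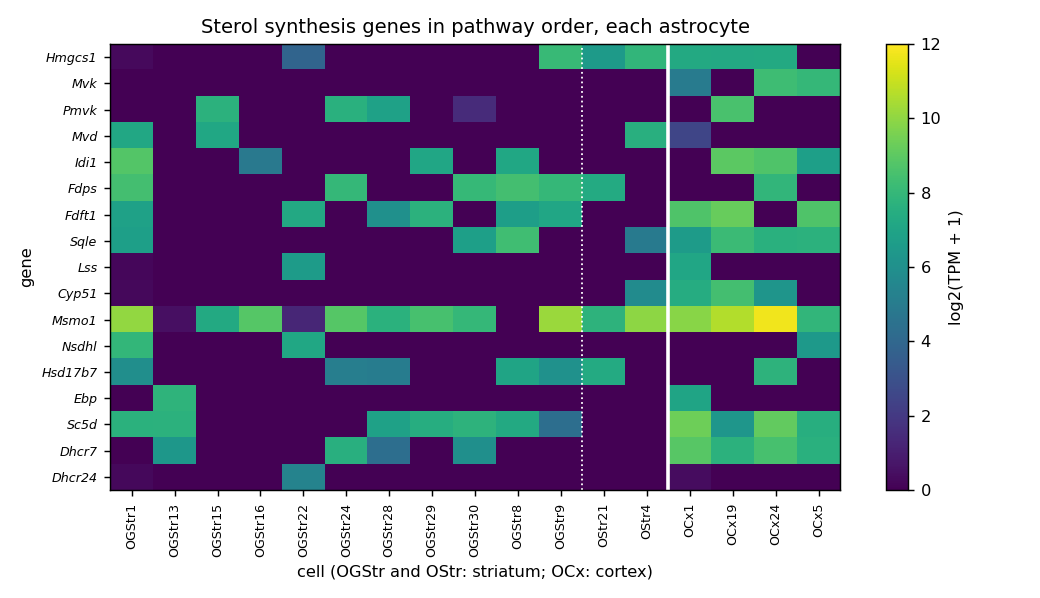
Heat map of log2(TPM + 1) for 17 of the 18 sterol synthesis genes in the order of the pathway, with 1 column per cell; the thick white line separates the 13 striatum cells from the 4 cortex cells. Msmo1, Sc5d, Sqle and Dhcr7 are bright in the 4 cortex columns, and most striatum columns are dark outside Msmo1.

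The promoters of these enzymes are shown because genes of sterol synthesis are textbook targets of SREBP factors acting beside NF-Y, which binds the motif CCAAT. The sequences are the 250 bases before the RefSeq start on GRCm38.p6, 5′ to 3′ on the gene's own strand, for the 5 of the 7 cortex-called enzymes that had a window in the table. Mvk is at chr5:114444019-114444268 on the plus strand, Idi1 at chr13:8885356-8885605 on the plus strand and Cyp51 at chr5:4104698-4104947 on the minus strand. Sc5d is at chr9:42264301-42264550 on the minus strand and Dhcr7 at chr7:143829964-143830213 on the plus strand, the latter being the only 1 of 3 Dhcr7 windows with the motif. Capitals mark CCAAT or its reverse complement ATTGG.
Mvk: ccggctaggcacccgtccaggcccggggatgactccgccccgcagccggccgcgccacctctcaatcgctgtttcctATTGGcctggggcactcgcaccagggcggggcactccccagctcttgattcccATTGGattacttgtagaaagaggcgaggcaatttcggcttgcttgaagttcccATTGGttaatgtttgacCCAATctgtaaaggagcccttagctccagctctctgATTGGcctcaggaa
Idi1: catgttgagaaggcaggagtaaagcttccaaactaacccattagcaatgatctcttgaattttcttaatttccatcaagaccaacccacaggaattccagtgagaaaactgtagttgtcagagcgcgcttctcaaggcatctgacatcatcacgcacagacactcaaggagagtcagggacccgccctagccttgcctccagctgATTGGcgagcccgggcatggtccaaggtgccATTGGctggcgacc
Cyp51: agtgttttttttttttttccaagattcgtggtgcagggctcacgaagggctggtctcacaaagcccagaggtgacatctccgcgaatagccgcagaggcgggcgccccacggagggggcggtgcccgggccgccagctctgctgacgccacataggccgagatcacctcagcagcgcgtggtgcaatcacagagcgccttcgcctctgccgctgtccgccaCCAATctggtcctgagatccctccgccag
Sc5d: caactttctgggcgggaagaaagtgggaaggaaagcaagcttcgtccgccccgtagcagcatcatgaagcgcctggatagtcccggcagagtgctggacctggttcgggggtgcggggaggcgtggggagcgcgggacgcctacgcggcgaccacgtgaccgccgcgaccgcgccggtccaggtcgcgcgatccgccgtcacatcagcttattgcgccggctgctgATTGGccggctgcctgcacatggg
Dhcr7: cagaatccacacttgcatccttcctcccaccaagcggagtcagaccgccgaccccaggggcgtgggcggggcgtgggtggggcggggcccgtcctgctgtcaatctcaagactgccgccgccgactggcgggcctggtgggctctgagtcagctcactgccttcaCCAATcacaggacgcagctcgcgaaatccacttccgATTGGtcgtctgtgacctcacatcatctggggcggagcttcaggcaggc

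The motif is present in the 5 sequences shown, in 1 copy in Cyp51 and Sc5d, in 2 copies in Idi1 and Dhcr7, and in 5 copies in Mvk. For Dhcr7 this followed from the choice of window, since the windows starting at 143822917 and 143823149 hold 0 copies. With 50 bases after the start and both strands included, the motif was found for 13 of the 13 sterol genes with a window. This compares with 41.1% of the 27025 genes in the table, and any 1 matching window counted for a gene. Among the sterol genes the motif was thus as frequent in those not called as in those called. Among cortex-called genes of all kinds it was found in 43.1%, near the 44.01% of all measured genes. TCACNCCAC, a core of the sterol response element, was found in Hmgcs1 alone of the 13, against 1.44% of all genes, and TAATTA, a homeodomain core, in Ebp alone, against 6.12%. The motifs were chosen after the expression values were known. A match describes these letters and not a bound site.

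The other metabolic lists had few calls. Glycolysis and lactate genes had 0 calls for striatum and 1 for cortex among 24, with a median of -0.47, and fatty acid oxidation had 2 and 1 among 31, with a median of -0.49. Summed levels were lower in striatum for several lists. For the respiratory chain and for amino acid and transmitter metabolism, 9 of 13 striatum cells lay below all cortex cells. For glycolysis and lactate 7 of 13 did. Over genes with 10 TPM in both regions, these lists had medians of -0.25, -0.13 and -0.60 in turn, against -0.39 for all such genes. The first 2 lists were thus shifted less towards cortex than the bulk of expressed genes. Redox and glutathione genes had 2 calls each way among 33 and a median of 0.70. Over the 22 of them with 10 TPM in both regions the median was 0.37. The summed level of the redox list ran from 26314 to 46836 TPM in striatum and from 19033 to 32438 TPM in cortex, with 9 of 13 striatum cells above all cortex cells. The median sums were 37524 TPM in striatum and 22780 TPM in cortex. Part of the sum was Mt1, a metallothionein, which averaged 10034 ± 3741 TPM (SD, n = 13 cells) in striatum and 4001 ± 2902 TPM (SD, n = 4 cells) in cortex. Aldoc, the aldolase of astrocytes, averaged 9359 and 10007 TPM, and Ckb, the brain creatine kinase, 6253 and 9892 TPM.

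Markers of other cell types were measured in the same cells. Of the endothelial list 0 of 10 genes reached 10 TPM in either region. Of the 10 genes on the leptomeningeal fibroblast list 9 matched a symbol, and 0 of these 9 reached 10 TPM. Of 10 oligodendrocyte genes only Cnp did, at a mean of 171 TPM in striatum and 138 TPM in cortex. Of 8 oligodendrocyte progenitor genes Olig1 and Olig2 did, both called for cortex. Of the other 6, Gpr17 was detected in 1 striatum cell, OStr21, at 7.01 TPM and 5 were at 0 in both regions. Olig1 was at 369, 320, 154 and 0 TPM in cortex and detected in 1 striatum cell, and Olig2 at 85.01, 208, 0 and 0 TPM and in 0 striatum cells. The microglia list had 2 measured genes, of which 1 was called for striatum, while 10 of its 12 genes were at 0 in all striatum cells. Its sum ran from 0 over a median of 108.6 to 514 TPM in striatum and was 237 TPM in OCx24 and 0 in the other cortex cells. Of the mural list, Pdgfrb was called for striatum as given above, while Myl9 had a log2 difference of -1.19 and was in cortex only in OCx5, at 319 TPM. Of the ependymal list, Rarres2 was called for striatum, with detection in 8 of 13 cells and in 1 cortex cell, and the list's sum ran from 0 to 786 TPM in striatum and from 0 to 71.7 TPM in cortex.

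Transcripts on the neuronal lists were present in cells of both regions. The list of striatal projection neurons, 12 genes, summed to 0 to 905 TPM (median 272) in striatum cells and to 176 to 478 TPM in cortex cells. Among cortex cells the sums of the cortical excitatory and pan-neuronal lists were highest in OCx19. This cell detected 4 of 12 markers of cortical excitatory neurons, with a sum of 831 TPM that included Cux2 at 352 and Fezf2 at 209 TPM, and it held the neuronal tubulin Tubb3 at 203 TPM. The list summed to 34.2, 278 and 139 TPM in OCx1, OCx24 and OCx5 and to between 0 and 263 TPM over the striatum cells. Rorb, a member that 10 of 13 striatum cells also detected, made up the whole sum in OCx1 and OCx5. The pan-neuronal list summed to 238 TPM in OCx19 and to 233 TPM in OCx5, where it was nearly all Uchl1, against a highest striatum value of 287 TPM. Dhcr7, Sqle, Sc5d and Igfbp2 were detected in each of the 4 cortex cells. Of the other cortex-called sterol enzymes, Idi1 was at 0 in OCx1, Fdft1 in OCx24, Cyp51 in OCx5 and Mvk in OCx19. The part of neuronal transcripts in the results was not tested.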

How the data were processed

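The authors deposited 1 table of TPM for the 17 astrocytes and 1 for the SVZ cells; the submitters' processing notes list mm10 as build and, as tools, RSEM 1.2.18 and STAR 2.4.0g1 with no roles, and the annotation is not given in the sources used here. Of 43309 gene identifiers 42425 matched a symbol, and the highest was kept where 1 symbol had several, which left 42405. From the deposited TPM the mean per region and log2 of (mean + 1) in striatum over cortex were computed, for genes with a mean of 10 TPM or more in either region. A fold on this scale understates the change of low genes. In each class and direction the text names up to 4 called genes with a mean of 20 TPM or more and the most extreme share of cell pairs, the 3 most abundant genes, and the patterning and label genes. Others are named as members of lists or for their ranges. Members, lists and classes were chosen with earlier results of these data known. Scripts were tested on simulated data (Python 3.11.15, pandas 2.3.3, numpy 2.4.6, scipy 1.17.1). Gene positions are from GENCODE M21. Alternatives were OGStr cells only, median-ratio scaling, a pseudocount of 10 TPM, the mean of logs, 10 TPM in both regions, no floor, and each cell left out. Some genes of the lists are not reported here by name.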

Additional observations from a re-analysis of the deposited data

Results flagged for a closer look

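Of 49 quantities examined over the 4 cortex cells, which were named genes and 3 measures of each cell's library, 9 had 1 cell set apart from the other 3 by more than 0.829 of the whole range, Dixon's 95% critical value for 4 samples. Chance flags about 1 in 20 groups of evenly spread values, and genes at 0 in 3 cells meet the criterion whenever the other cell is above 0. OCx1 stood above the other cortex cells for Cst3 at 37892 TPM, Mfsd2a at 356, Ryk at 284 and Tcf7l2 at 151 TPM. OCx5 was the cell with Id1 at 136 and Id3 at 3254 TPM. OCx24 was the cell with Dlx1 at 105.6 and Nr2f1 at 84.7 TPM, and OCx19 the cell with Ndufb7 at 242 TPM. Striatum, with 13 cells, was outside this check.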

How the results depend on the processing

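No paired analysis was possible because the cells' replicate numbers are names in accession order and no result comes from a test. Starting from 308 striatum and 587 cortex calls, the mean of logs gave 473 and 1016, 10 TPM in both regions gave 72 and 292, and a pseudocount of 10 TPM gave 348 for cortex. Genes without overlap, 1 for striatum and 6 for cortex, became 3 and 13 with OGStr cells only, 7 and 3 with median-ratio scaling, and 0 and 2 with 10 TPM in both. That last setting drops genes near 0 in 1 region by construction, and for striatum and cortex left 3 and 12 transporters, 0 and 7 receptors, 3 and 8 transcription factors, 0 and 5 secreted genes, and 2 metabolic genes for striatum. Median-ratio scaling gave 7 receptors, 9 metabolic genes and 4 sterol enzymes for cortex. A pseudocount of 10 TPM gave 13 transporters and 5 receptors for cortex, and 4 receptors and 9 transcription factors for striatum. The mean of logs gave 38 transporters, 14 secreted and 50 metabolic genes for cortex, and 26 metabolic genes for striatum. The cause of the other moves was not tested.

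With each cell left out in turn, striatum calls numbered 386 to 418 and cortex calls 461 to 626. The first range lies above 308 in part because 50% of 12 cells is met by fewer cells. Of the 308 genes 279 to 305 remained, and of the 587 genes 358 to 392 remained without a cortex cell and 542 to 557 without a striatum cell. Genes without overlap numbered 1 to 7 for striatum and 6 to 37 for cortex. For striatum and cortex respectively the ranges were 14 to 19 and 14 to 23 for transporters, 6 to 13 and 7 to 12 for receptors, 17 to 22 and 20 to 35 for transcription factors, 5 to 8 and 6 to 10 for secreted genes, and 10 to 17 and 16 to 21 for metabolic genes. Sterol enzymes numbered 5 to 9 for cortex.

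Of 1344 values of 64 named genes under the alternatives, 0 reversed a called direction, 1321 stayed within 1 SD between cells and 23 moved by more. Some log2 differences rested on 1 cell: without OCx5, Id1 and Id3 stood at 9.30 and 11.37, without OCx19 Ndufb7 stood at 8.10, and without the cell OGStr22 Bhlhe40 and Hrh1 stood at -7.60 and -7.77. Detection at 10 TPM left 41 of 41 shares, 1 for each called named gene, within their intervals. Shares outside this count could move more. For Fzd2 in cortex, detection fell from 3 of 4 cells to 0 of 4, outside its interval of 19.4% to 99.4%. Intervals from 4 cells are too wide for a close check, and that for 4 of 4 cells starts at 39.8%. With 4 cortex cells a share of 0 allows up to 60.2%.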
